A study of Mus musculus with 18 samples.

Results

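The transcripts of 10 transcription factors that specify and maintain the insulin-producing beta cell were followed in beta cells sorted from mouse islets. They were taken by name as Pdx1, Mafa, Nkx6-1, Nkx2-2, Neurod1, Isl1, Foxa2, Pax6, Rfx6 and Hnf4a. They are 10 of the 53090 genes in the count table, and all 10 were among the 19284 genes with enough counts to be tested. The mice carried a liver-specific deletion of the insulin receptor (LIRKO) or served as controls (Ctrl). They ate chow or HFD, taken to be a high-fat diet. The 18 RNA-seq libraries comprise 3 of LIRKO mice on HFD, 4 of LIRKO mice on chow, 5 of Ctrl mice on HFD and 6 of Ctrl mice on chow. Strain, age, sex, time on the diet, the promoter behind the liver deletion, and what the controls carry beyond the word Ctrl, were not known here. Islets of every group were kept in culture overnight and dispersed, and cells were sorted by light scatter and their own fluorescence.

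Beta-cell identity rests on a network of transcription factors that bind one another's genes as well as the insulin genes. Pdx1 is needed for the pancreas to form and later for insulin and glucose transporter expression in the adult beta cell, and Mafa is switched on late, as beta cells acquire mature glucose-stimulated secretion. Nkx6-1 and Nkx2-2 keep the beta-cell programme from drifting toward other islet cell fates, Neurod1, Isl1, Pax6 and Rfx6 act across several islet endocrine types, and Foxa2 and Hnf4a are shared with the liver. LIRKO mice lack insulin action in hepatocytes and are known for high circulating insulin and enlarged islets, and HFD also raises the demand for insulin.

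Promoter windows of Pdx1, Foxa2 and Isl1, 3 factors whose transcripts differed between groups, are shown beside that of Ins1, an insulin gene that the factors bind. Each runs from 250 bases before to 50 bases after the annotated start in the RefSeq annotation of GRCm38.p6, read 5′ to 3′ on the strand of the gene. Capitals mark letters that match, on either strand, the homeodomain core TAAT, the E-box CACGTG, the insulin-gene E1 box GCCATCTG or CTTCAGC, which is part of the insulin-gene C1 element that Mafa binds. The promoters lie at chr5:147269847-147270146 on the plus strand for Pdx1, chr2:148046920-148047219 on the minus strand for Foxa2, chr13:116309639-116309938 on the minus strand for Isl1 and chr19:52264047-52264346 on the plus strand for Ins1.
Pdx1: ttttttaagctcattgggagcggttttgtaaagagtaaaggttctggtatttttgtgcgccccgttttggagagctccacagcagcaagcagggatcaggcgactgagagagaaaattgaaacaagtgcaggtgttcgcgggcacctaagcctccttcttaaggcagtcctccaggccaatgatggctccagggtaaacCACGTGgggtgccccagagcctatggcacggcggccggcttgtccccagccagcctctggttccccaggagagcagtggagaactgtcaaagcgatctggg
Foxa2: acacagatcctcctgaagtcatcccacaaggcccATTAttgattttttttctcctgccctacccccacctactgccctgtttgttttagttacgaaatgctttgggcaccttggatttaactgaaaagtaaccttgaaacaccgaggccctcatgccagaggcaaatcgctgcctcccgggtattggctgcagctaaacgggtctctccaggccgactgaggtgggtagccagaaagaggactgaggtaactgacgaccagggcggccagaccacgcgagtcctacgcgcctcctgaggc
Isl1: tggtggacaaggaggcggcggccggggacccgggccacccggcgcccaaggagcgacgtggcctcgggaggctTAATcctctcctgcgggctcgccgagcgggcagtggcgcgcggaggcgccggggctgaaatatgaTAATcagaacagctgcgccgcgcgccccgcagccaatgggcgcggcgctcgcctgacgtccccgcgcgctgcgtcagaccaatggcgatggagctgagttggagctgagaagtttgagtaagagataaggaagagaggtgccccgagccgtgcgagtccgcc
Ins1: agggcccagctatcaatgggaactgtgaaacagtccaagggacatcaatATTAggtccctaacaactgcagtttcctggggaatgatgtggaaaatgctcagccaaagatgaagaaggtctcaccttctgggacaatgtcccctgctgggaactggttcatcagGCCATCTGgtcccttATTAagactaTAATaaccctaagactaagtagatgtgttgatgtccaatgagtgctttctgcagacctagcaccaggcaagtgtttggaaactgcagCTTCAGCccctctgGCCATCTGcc
The Pdx1 window holds 1 CACGTG, which begins at position -51 from the start, and no TAAT. The E-box CACGTG is found in 7.15% of the 32851 promoters of the same length in the table. TAAT occurs 1 time in the Foxa2 window, 2 times in the Isl1 window and 3 times in the Ins1 window, and 58.0% of all promoters hold it. Of the 4 windows, Ins1 holds GCCATCTG 2 times and CTTCAGC 1 time and the other 3 hold neither, and 1.32% and 6.45% of all promoters hold them. These are matches of letters and were not tested as binding sites. The promoter table holds 9 of the 10 factors, without Mafa.

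Libraries held 19490235 to 51714775 counted reads, and Ins1 and Ins2 together took 8.97% to 18.7% of them, so that the libraries carried the defining transcripts of beta cells. Every factor had at least 134 counts in every library. Levels are counts per 1e6 reads (CPM) with library sizes scaled by edgeR's TMM, and are given with the standard deviation (SD) between libraries. The labels do not say which libraries came from separate animals, so p-values rest on a spread between libraries that could be technical. Libraries 1 and 2 of Ctrl HFD stood apart: Malat1, a long noncoding RNA retained in the nucleus, made up 1.37% and 1.06% of their counts, against 0.486% to 0.600% in LIRKO HFD and 0.0866% to 0.415% in the other 13 libraries. The robust spread of the log2 ratio between 2 libraries (scaled median absolute deviation over 12038 genes) was 0.663 to 0.867 between either of them and Ctrl HFD libraries 3 to 5. In LIRKO chow, libraries 1 and 2 differed by a spread of only 0.0981 and libraries 3 and 4 by 0.112, against at least 0.186 in every other pair within a group. These 2 pairs still differed by more than counting noise, with a chi-square of 6.35 and 8.50 per gene. Repeat libraries of 1 animal can also exceed counting noise, so this does not show the libraries to come from separate animals. The pairs were kept as 4 libraries. Calls of the 10 factors are given also without Ctrl HFD libraries 1 and 2, and with each close LIRKO chow pair summed into 1 library, where that changes them.

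The factors differed widely in level per length. Over all 18 libraries the mean reads per kilobase of exon per 1e6 reads (RPKM, on the union of annotated exons) was 99.1 for Nkx6-1, 76.6 for Neurod1, 51.2 for Pax6, 46.4 for Pdx1 and 44.4 for Rfx6. It was 42.7 RPKM for Nkx2-2, 39.8 RPKM for Isl1, 28.7 RPKM for Foxa2, 12.3 RPKM for Mafa and 6.44 RPKM for Hnf4a. Each pair of neighbours in this order overlapped in its range over the 18 libraries. With the longest transcript in place of the exon union, Pax6 had 135 RPKM and came first, since its union of exons is 11694 bases long and its longest transcript 4427. The place of Mafa in the order differed between groups. It had 1.59 to 3.18 RPKM in LIRKO HFD libraries, below Hnf4a at 5.33 to 6.84 RPKM. In Ctrl chow libraries Mafa had 12.0 to 39.4 RPKM, above Hnf4a at 7.09 to 8.49 RPKM.

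**Figure D1:**
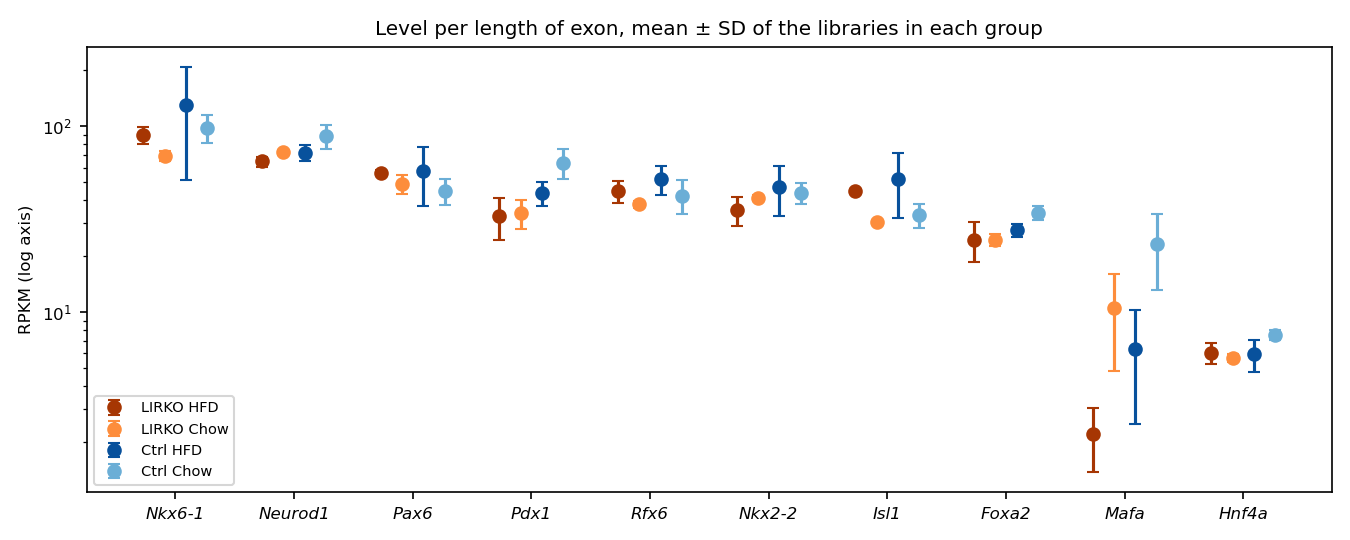
Level per length of exon (RPKM, log axis) of the 10 factors, ordered by their mean over all libraries; points are group means and bars the SD over the libraries of a group (3 LIRKO HFD, 4 LIRKO Chow, 5 Ctrl HFD, 6 Ctrl Chow). Mafa spans from 2.22 RPKM in LIRKO HFD to 23.4 RPKM in Ctrl Chow, while the group means of Hnf4a lie between 5.68 and 7.58 RPKM.

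On chow, Pdx1 and Foxa2 were lower in LIRKO beta cells than in Ctrl beta cells, and no factor was higher. Pdx1 transcripts were at 81.8, 87.5, 63.1 and 62.3 CPM in the 4 LIRKO chow libraries, against a lowest value of 97.9, a median of 137 and a highest value of 176 CPM in the 6 Ctrl chow libraries. Every LIRKO chow library was below every Ctrl chow library, and within LIRKO the close pair 3 and 4 was lower than the pair 1 and 2. The means were 73.7 ± 12.9 CPM (SD, n = 4) and 138 ± 25.4 CPM (SD, n = 6), a 1.87-fold lower level (log2 fold change -0.90, SE 0.17, adjusted p = 0.00452, edgeR quasi-likelihood test over 19284 genes).

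Foxa2, a pioneer factor that opens chromatin at pancreatic and hepatic genes, had 58.6, 63.4, 55.5 and 54.2 CPM in LIRKO chow libraries, and a lowest value of 74.2, a median of 79.6 and a highest value of 95.1 CPM in Ctrl chow libraries. These groups did not overlap either. The level was 1.40-fold lower in LIRKO (log2 fold change -0.49, SE 0.12, edgeR adjusted p = 0.0228). Over the 18 libraries Foxa2 and Pdx1 had a Pearson r of 0.924 in log2 CPM, given as a description, since the libraries share groups.

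Of the 10 factors, 2 passed as lower on chow and 0 as higher, where 5.15% of all tested genes passed, 2.95% as higher and 2.2% as lower. The groups did not overlap for 4 factors, Pdx1, Foxa2, Hnf4a and Nkx6-1, all lower in LIRKO, as was so for 11.7% of all tested genes, 6.46% higher and 5.21% lower. Hnf4a, a nuclear receptor mutated in a familial form of diabetes, had 25.8 to 29.0 CPM in LIRKO chow and 34.3 to 41.0 CPM in Ctrl chow libraries (log2 fold change -0.42, SE 0.12, adjusted p = 0.0628). Nkx6-1 had 203 to 237 CPM in LIRKO chow and 257 to 407 CPM in Ctrl chow libraries (-0.50, SE 0.30, adjusted p = 0.395). The median log2 fold change of the 10 factors was -0.35, against -0.02 over all tested genes, and 9 of the 10 were below 0.

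Mafa, a basic leucine zipper factor that activates insulin and secretion genes, had 37.6, 45.9, 16.4 and 14.9 CPM in LIRKO chow libraries, and a lowest value of 32.9, a median of 54.3 and a highest value of 108 CPM in Ctrl chow libraries. LIRKO libraries 3 and 4 were below all Ctrl chow libraries and libraries 1 and 2 were within their range, so that a log2 fold change of -1.16 (SE 0.46) did not pass (edgeR adjusted p = 0.167). The summed CPM of 13 endothelial markers was 21.5 and 26.3 in LIRKO chow libraries 1 and 2 and 215 and 183 in libraries 3 and 4, against 45.7 to 236 in Ctrl chow, and no marker of that list was at 0 in a whole group. Whether endothelial RNA has a part in the Mafa or Pdx1 values was not tested. In sorted cells measured in bulk, fewer cells of a type and less RNA per cell cannot be told apart.

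The other 5 factors did not pass on chow. Their log2 fold changes were -0.29 for Neurod1, -0.15 for Rfx6, -0.12 for Isl1, -0.10 for Nkx2-2 and 0.13 for Pax6, with SE between 0.12 and 0.20. The approximate 95% interval of Nkx2-2 ran from -0.44 to 0.25 and that of Pax6 from -0.26 to 0.52.

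The Pdx1 difference passed in 26 of 27 alternative settings. It kept its size and missed the threshold when each close LIRKO chow pair was summed, which leaves 2 LIRKO chow libraries (log2 fold change -0.90, adjusted p = 0.092). Foxa2 passed in 22 of 27 settings. It missed the threshold with the pairs summed (adjusted p = 0.265), with no filter on low counts (0.104), and without LIRKO chow library 1 (0.0608), 3 (0.0886) or 4 (0.112). Hnf4a passed in 6 settings, which were DESeq2 (adjusted p = 0.022), a fit to the chow groups alone (0.013), the fit without Ctrl HFD libraries 1 and 2 (0.0133) and those without Ctrl HFD library 1 (0.0361), 2 (0.044) or 3 (0.0413). Nkx6-1 passed in the fit to the chow groups (0.0456) and without Ctrl HFD libraries 1 and 2 (0.0275).

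**Figure D2:**
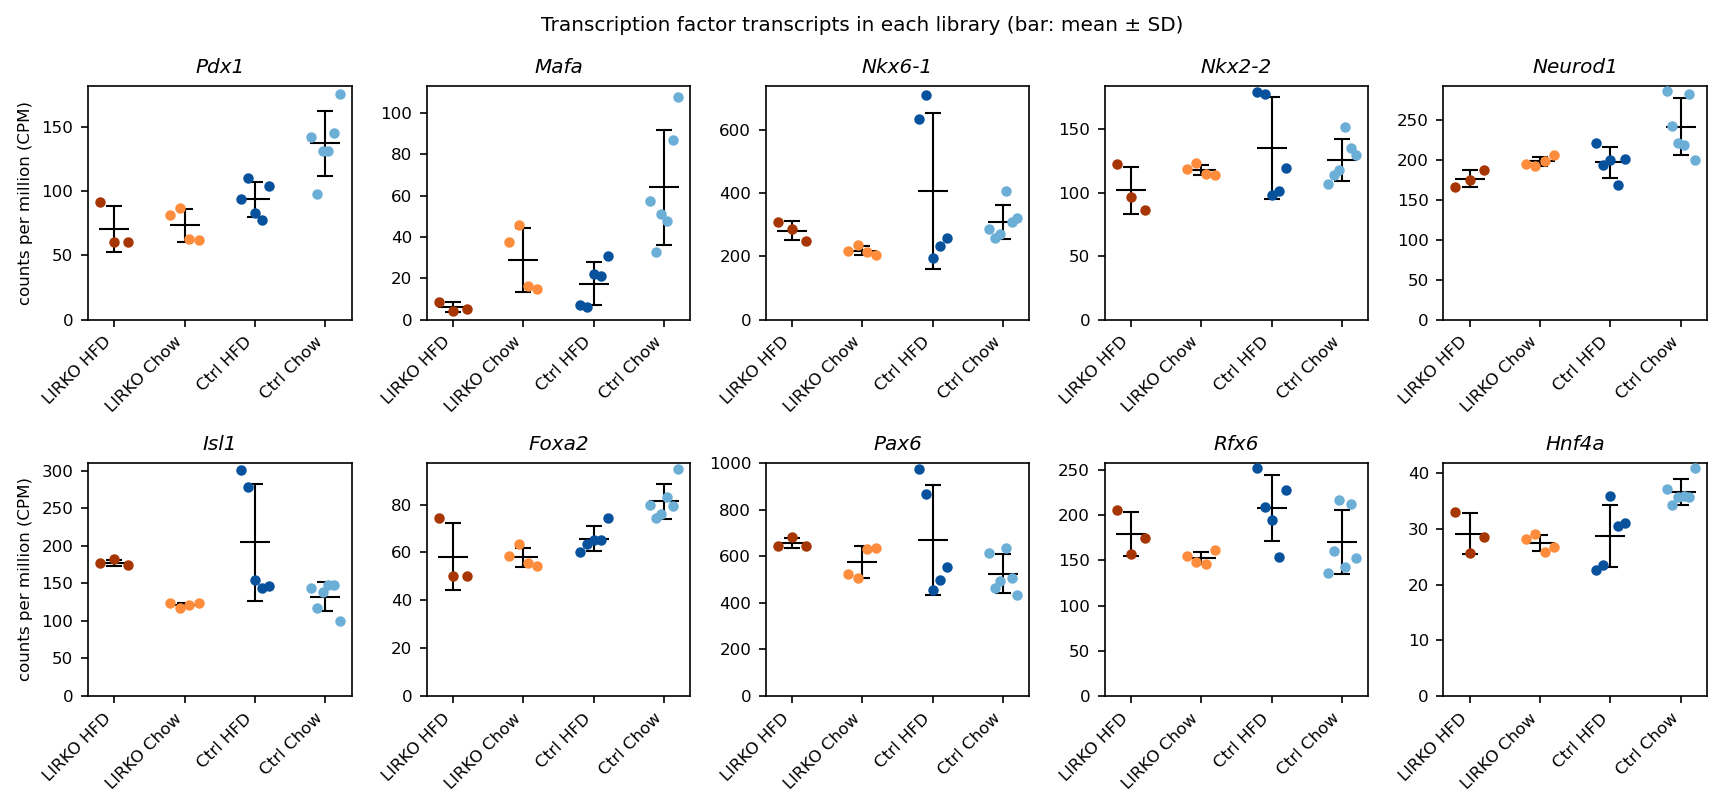
Level of each factor (CPM, axis from 0) in each of the 18 libraries, with the mean and SD of each group. Pdx1 lies at 62.3 to 87.5 CPM in LIRKO Chow and 97.9 to 176 CPM in Ctrl Chow with no overlap, Mafa is lower in both HFD groups, and in Ctrl HFD 2 libraries lie well above the other 3 for Nkx6-1, Isl1, Pax6 and Nkx2-2.

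On HFD, 0 of the 10 factors passed between LIRKO and Ctrl in edgeR, where 0.508% of all tested genes did, 0.316% as higher and 0.192% as lower. At an unadjusted p under 0.05 there were 2, Mafa and Pdx1, and DESeq2 and limma voom each called 0. The share of all tested genes at that unadjusted threshold was not counted, here or for the other such counts below. Mafa had 8.70, 4.36 and 5.18 CPM in LIRKO HFD libraries, against 6.95, 6.23, 22.1, 21.0 and 30.8 CPM in Ctrl HFD libraries. Ctrl HFD libraries 1 and 2 were within the LIRKO range and libraries 3 to 5 above it, and the log2 fold change was -1.53 (SE 0.54, adjusted p = 0.361). Without Ctrl HFD libraries 1 and 2 it was -2.02, and Mafa passed (adjusted p = 0.046).

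Pdx1 had 91.5, 60.7 and 60.4 CPM in LIRKO HFD libraries and 94.1, 111, 83.0, 77.6 and 104 CPM in Ctrl HFD libraries. LIRKO libraries 2 and 3 were below all Ctrl HFD libraries and library 1 was within their range (log2 fold change -0.41, SE 0.19, edgeR adjusted p = 0.637). No factor had groups without overlap on HFD, which 5.01% of all tested genes had, 2.51% higher and 2.5% lower. The median log2 fold change of the factors was -0.21, against -0.03 over all tested genes.

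Averaged over the diets, 3 factors were lower in LIRKO and 0 higher, where 5.68% of all tested genes passed, 3.16% as higher and 2.52% as lower. The level was 1.57-fold lower for Pdx1 (log2 fold change -0.65, SE 0.13, edgeR adjusted p = 0.00459), 2.54-fold lower for Mafa (-1.34, SE 0.35, adjusted p = 0.0294) and 1.26-fold lower for Foxa2 (-0.33, SE 0.09, adjusted p = 0.0357). Pdx1 passed in all 26 alternatives run for this average, with adjusted p up to 0.0306. Mafa passed in 20 of them and not with the LIRKO chow pairs summed (0.108), nor without Ctrl HFD library 5 (0.0557), LIRKO chow library 3 (0.0694) or 4 (0.0708), or LIRKO HFD library 2 (0.112) or 3 (0.108). Foxa2 passed in 17 and not with the pairs summed (0.17) or with no filter (0.173), nor without Ctrl chow library 6 (0.054), Ctrl HFD library 5 (0.0681), LIRKO chow library 1 (0.0626), 3 (0.0829) or 4 (0.0919), or LIRKO HFD library 2 (0.15) or 3 (0.164). Hnf4a passed as lower in this average in 1 setting, without Ctrl HFD libraries 1 and 2 (log2 fold change -0.27, adjusted p = 0.0276).

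The Mafa transcript was lower on HFD in both genotypes. In LIRKO it averaged 6.08 ± 2.31 CPM on HFD (SD, n = 3) and 28.7 ± 15.4 CPM on chow (SD, n = 4), a 4.73-fold lower level with no overlap between the libraries (log2 fold change -2.24, SE 0.57, edgeR adjusted p = 0.0483). In Ctrl it averaged 17.4 ± 10.6 CPM on HFD (SD, n = 5) and 64.0 ± 28.0 CPM on chow (SD, n = 6), a 3.65-fold lower level, also with no overlap (-1.87, SE 0.44, adjusted p = 0.0312). The Ctrl chow libraries enter both this difference and the genotype difference on chow. Averaged over the genotypes, Mafa was 4.16-fold lower on HFD (-2.05, SE 0.36, adjusted p = 0.00261), and it passed in all 26 alternatives run for that average, with adjusted p up to 0.0163.

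Within a genotype the call depended on more settings. In Ctrl, Mafa passed in 20 of 27 settings and not in a fit to the Ctrl groups alone (adjusted p = 0.102), with the LIRKO chow pairs summed (0.0588), without Ctrl HFD libraries 1 and 2 together (log2 fold change -1.33, 0.151), nor without Ctrl HFD library 1 (0.0867) or 2 (0.0742) or Ctrl chow library 1 (0.0677) or 6 (0.0766). In LIRKO it passed in 14 of 27 and not with total counts as the only scaling (0.0547) or with the pairs summed (0.213). It also missed the threshold without LIRKO HFD library 1 (0.102), 2 (0.226) or 3 (0.175), without LIRKO chow library 1 (0.129) or 2 (0.152), without Ctrl chow library 1 (0.0586), 3 (0.0561), 4 (0.0531) or 5 (0.0569), or without Ctrl HFD library 3 (0.0536) or 4 (0.0522). The fold change stayed between -2.59 and -1.92 in LIRKO over the fits without 1 library.

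Isl1, a LIM homeodomain factor of all islet endocrine cells, was the one factor that passed as higher on HFD. In Ctrl it had 301, 278, 154, 143 and 147 CPM on HFD, against a lowest value of 100.2, a median of 141 and a highest value of 148 CPM on chow. Libraries 1 and 2 were well above the chow range, while libraries 3 to 5 lay near its upper end. The log2 fold change was 0.63 (SE 0.18, adjusted p = 0.0436). Without Ctrl HFD libraries 1 and 2 it was 0.20 and did not pass (0.325).

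In LIRKO, Isl1 had 177, 182 and 175 CPM on HFD, against 124, 117, 122 and 124 CPM on chow. The groups did not overlap and each was narrow, and the log2 fold change of 0.55 (SE 0.23) did not pass in the fit to all 18 libraries (edgeR adjusted p = 0.239). It passed in the fit to the LIRKO groups alone (0.56, adjusted p = 0.00458) and in the fit without Ctrl HFD libraries 1 and 2 (0.56, adjusted p = 0.0179), in which the spread shared by the groups does not include those libraries. Averaged over the genotypes Isl1 was 1.50-fold higher on HFD (0.59, SE 0.15, adjusted p = 0.0151), and passed in 25 of 26 settings, not with the LIRKO chow pairs summed (0.0724).

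Pdx1 in Ctrl averaged 93.9 ± 13.8 CPM on HFD (SD, n = 5) and 138 ± 25.4 CPM on chow (SD, n = 6), and was 1.47-fold lower (log2 fold change -0.55, SE 0.16, edgeR adjusted p = 0.0425). The libraries overlapped, since Ctrl HFD libraries 2 and 5, with 111 and 104 CPM, were above the lowest Ctrl chow library. This call passed in 11 of 27 settings, and not without Ctrl HFD libraries 1 and 2 (log2 fold change -0.60, adjusted p = 0.152) or with the LIRKO chow pairs summed (0.0644). It also missed the threshold with total counts as the only scaling (0.0678), with no filter (0.057) and in a fit to the Ctrl groups alone (0.108). The Isl1 call in Ctrl passed in 9 of 27, and not with the pairs summed (0.0706). Nor did Isl1 pass there in limma voom (0.0553), with no filter (0.0688) or in a fit to the Ctrl groups alone (0.124). In LIRKO, Pdx1 averaged 70.9 ± 17.9 CPM on HFD (SD, n = 3) and 73.7 ± 12.9 CPM on chow (SD, n = 4), a log2 fold change of -0.06 with an approximate 95% interval from -0.45 to 0.34.

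In Ctrl, 1 factor passed as higher and 2 as lower on HFD, where 9.93% of all tested genes passed, 5.57% as higher and 4.35% as lower. Mafa and Foxa2, 2 factors, had groups without overlap, both lower on HFD, which 3.56% of all tested genes had, 1.43% higher and 2.13% lower. Foxa2 had 60.0 to 74.2 CPM in Ctrl HFD and 74.2 to 95.1 CPM in Ctrl chow libraries, values that nearly touch (log2 fold change -0.31, SE 0.11, adjusted p = 0.0714). Foxa2 passed in DESeq2 (0.048) and without LIRKO HFD library 1 (0.0445). Hnf4a had a log2 fold change of -0.35 (adjusted p = 0.0597) and passed in DESeq2 (0.031) and without Ctrl HFD library 3 (0.0227).

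In LIRKO, 0 factors passed as higher and 1 as lower on HFD, where 2.03% of all tested genes passed, 1.06% as higher and 0.975% as lower. The groups did not overlap for 5 factors, Isl1, Nkx6-1 and Pax6 higher and Mafa and Neurod1 lower, while 34.4% of all tested genes had no overlap, 16.1% higher and 18.3% lower. Nkx6-1 had 307, 288 and 249 CPM in LIRKO HFD libraries and 216, 237, 215 and 203 CPM in LIRKO chow libraries (log2 fold change 0.37, SE 0.35, adjusted p = 0.596), and it passed only in the fit to the LIRKO groups alone (adjusted p = 0.0382). Averaged over the genotypes, 1 factor passed as higher and 1 as lower, where 21.2% of all tested genes passed, 12.1% as higher and 9.18% as lower. In that average Pdx1 (adjusted p = 0.0357) and Foxa2 (0.0362) passed as lower without LIRKO HFD library 1, and Neurod1 (0.0488) without Ctrl chow library 4.

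Some markers of other cell types passed as higher on HFD. The 13 endothelial markers summed to 298 to 374 CPM in LIRKO HFD and 21.5 to 215 CPM in LIRKO chow, and to 185 to 379 CPM in Ctrl HFD and 45.7 to 236 CPM in Ctrl chow libraries. Of these, 1 passed as higher on HFD in LIRKO and 5 in Ctrl, where 1.06% and 5.57% of all tested genes did. The 14 macrophage markers summed to 332 to 420 CPM in LIRKO HFD and 120 to 255 CPM in LIRKO chow, with 3 passing as higher, and to 195 to 502 CPM in Ctrl HFD and 160 to 302 CPM in Ctrl chow libraries, with 0 passing in edgeR and 5 at an unadjusted p under 0.05. The endothelial markers that passed without Ctrl HFD libraries 1 and 2 were 1 in LIRKO and 0 in Ctrl, and the macrophage markers 6 in LIRKO and 0 in Ctrl. In that fit 538 of all tested genes passed as higher on HFD in LIRKO and 25 in Ctrl. In LIRKO 13 endothelial and 10 macrophage markers were higher on HFD without overlap, and in Ctrl 0 and 0, against 16.1% and 1.43% of all tested genes. Averaged over the genotypes, 12 endothelial, 8 macrophage and 5 of 11 stellate and mesenchymal markers passed as higher and 0 as lower. Of all tested genes 12.1% passed as higher there. Those marker counts were 8, 10 and 5 without Ctrl HFD libraries 1 and 2, and 2, 4 and 0 with the LIRKO chow pairs summed. In those fits 1331 and 367 of all tested genes passed as higher, against 2324 as reported. Of the 11 acinar markers tested, 0 passed in either genotype in edgeR, with 0 at an unadjusted p under 0.05, and their median log2 fold change was -0.33 in LIRKO and -0.81 in Ctrl. None of the endothelial or macrophage markers was at 0 in a whole group. Their part in the Mafa and Isl1 differences was not tested.

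**Figure D3:**
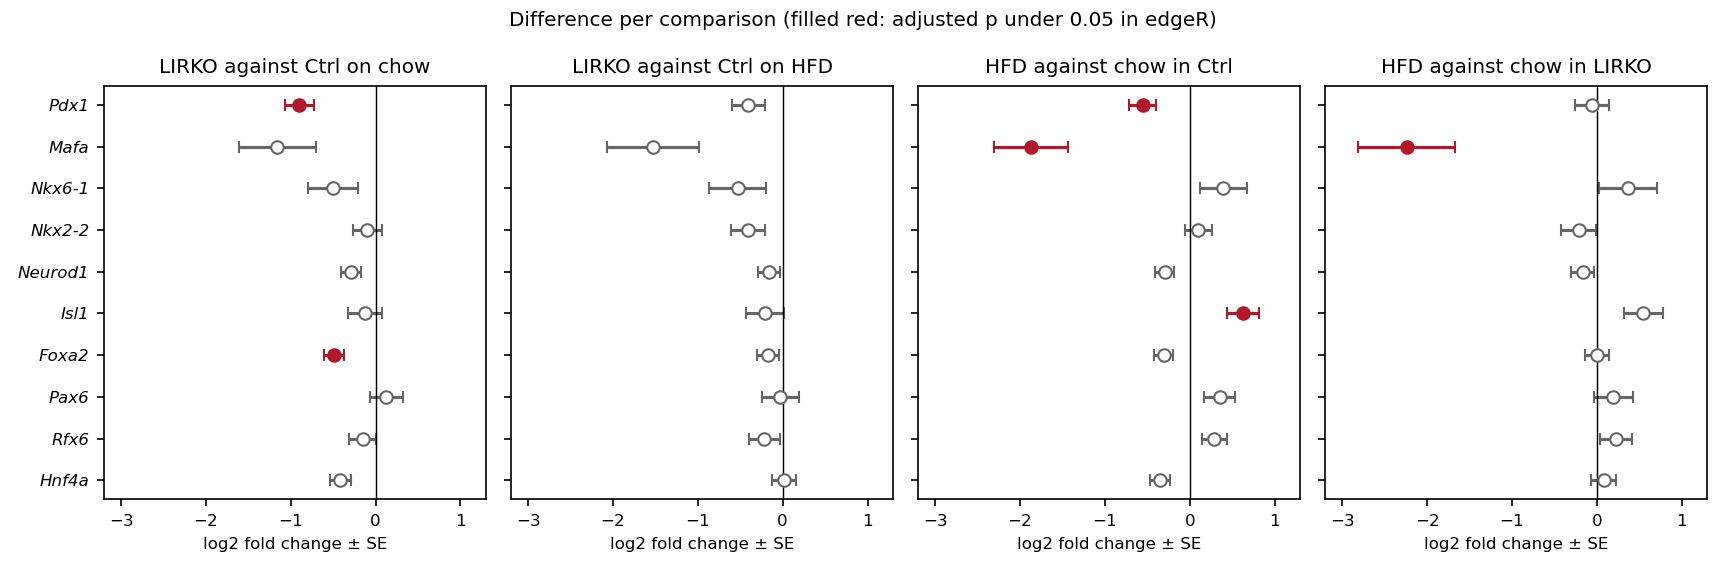
Log2 fold change with its SE for each factor in the 4 comparisons between 2 groups; filled red points passed in edgeR at an adjusted p under 0.05. Pdx1 and Foxa2 passed as lower between LIRKO and Ctrl on chow, none passed on HFD, Mafa passed as lower on HFD in both genotypes, and in Ctrl Pdx1 passed as lower and Isl1 as higher on HFD.

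For 7 of the 10 factors, both Ctrl HFD libraries 1 and 2 lay on the same side of libraries 3 to 5, 4 factors being higher and 3 lower in libraries 1 and 2. Of all tested genes 64.8% had no overlap between these sets of libraries, 31.4% higher and 33.4% lower, so that the share among the factors was near that of all genes. Nkx6-1 had 634 and 711 CPM in Ctrl HFD libraries 1 and 2, against 195, 232 and 259 CPM in libraries 3 to 5. Pax6, a paired-box factor needed in all islet endocrine types, had 975 and 869 CPM in libraries 1 and 2, against 453, 499.8 and 555 CPM in libraries 3 to 5. Both libraries exceeded all 16 others for these 2 factors and for Isl1 and Nkx2-2.

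Nkx2-2 had 179 and 178 CPM in Ctrl HFD libraries 1 and 2, against 98.1, 101 and 120 CPM in libraries 3 to 5. Mafa went the other way within Ctrl HFD, with 6.95 and 6.23 CPM in libraries 1 and 2, against 21.0 to 30.8 CPM in libraries 3 to 5. Hnf4a had 22.6 and 23.5 CPM, against 30.5 to 35.9 CPM, and Foxa2 had 60.0 and 63.4 CPM, against 65.3 to 74.2 CPM. The sign of the HFD difference in Ctrl depended on these 2 libraries for Nkx6-1 (log2 fold change 0.40 with them and -0.39 without), Pax6 (0.35 and -0.02) and Nkx2-2 (0.10 and -0.20), none of which passed in either fit.

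The Malat1 share followed the same division, being 1.37% and 1.06% in Ctrl HFD libraries 1 and 2 and 0.276% to 0.415% in libraries 3 to 5. Pdx1, at 94.1 and 111 CPM in libraries 1 and 2 against 77.6 to 104 CPM in libraries 3 to 5, overlapped between these sets of libraries, and so did Neurod1 and Rfx6. What part the nuclear share of RNA has in these values was not tested.

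**Figure D4:**
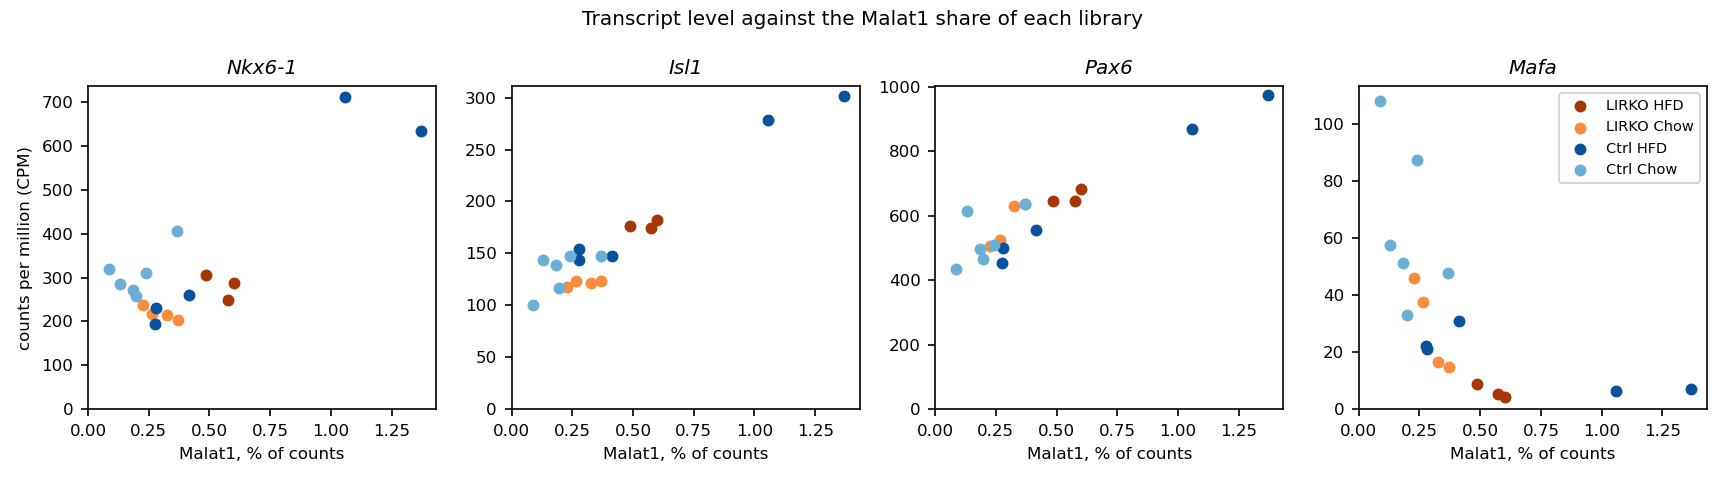
Level of Nkx6-1, Isl1, Pax6 and Mafa (CPM, axis from 0) against the share of each library's counts taken by Malat1 (%), 1 point per library, coloured by group. The 2 Ctrl HFD libraries at 1.06% and 1.37% Malat1 have the highest Nkx6-1, Isl1 and Pax6 values of the 18, and Mafa is under 10 CPM in these and in the 3 LIRKO HFD libraries at 0.486% to 0.600%.

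Rfx6, a winged-helix factor that acts early in endocrine development and later on secretion genes, had 205, 157 and 175 CPM in LIRKO HFD, 155, 149, 146 and 161 CPM in LIRKO chow, 252, 209, 195, 154 and 228 CPM in Ctrl HFD and 136 to 216 CPM in Ctrl chow, all groups overlapping with at least 1 other. Neurod1, a basic helix-loop-helix activator of the insulin genes, had 166, 175 and 188 CPM in LIRKO HFD and 193 to 207 CPM in LIRKO chow, and 169 to 222 CPM in Ctrl HFD and 200.1 to 287 CPM in Ctrl chow. Neither passed in any of the 7 comparisons. Over all 27 or 26 settings, Rfx6 passed 1 time, in the HFD difference averaged over the genotypes with total counts as the only scaling, and Neurod1 2 times in that average.

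The genotype by diet interaction, in which the chow difference between genotypes is subtracted from the HFD difference, passed for 0 of the 10 factors in edgeR, where 0.00519% of all tested genes passed, and for 0 in DESeq2 and limma voom. At an unadjusted p under 0.05 there was 1 factor, Hnf4a (0.43, SE 0.19, adjusted p = 0.867). For Pdx1 it was 0.50 (SE 0.25, approximate 95% interval from -0.01 to 1.00, adjusted p = 0.921) and for Mafa -0.37 (SE 0.68, approximate 95% interval from -1.72 to 0.98, adjusted p = 0.993). Pdx1 passed on chow and not on HFD, and this test did not show its genotype difference to differ between the diets.

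**Figure D5:**
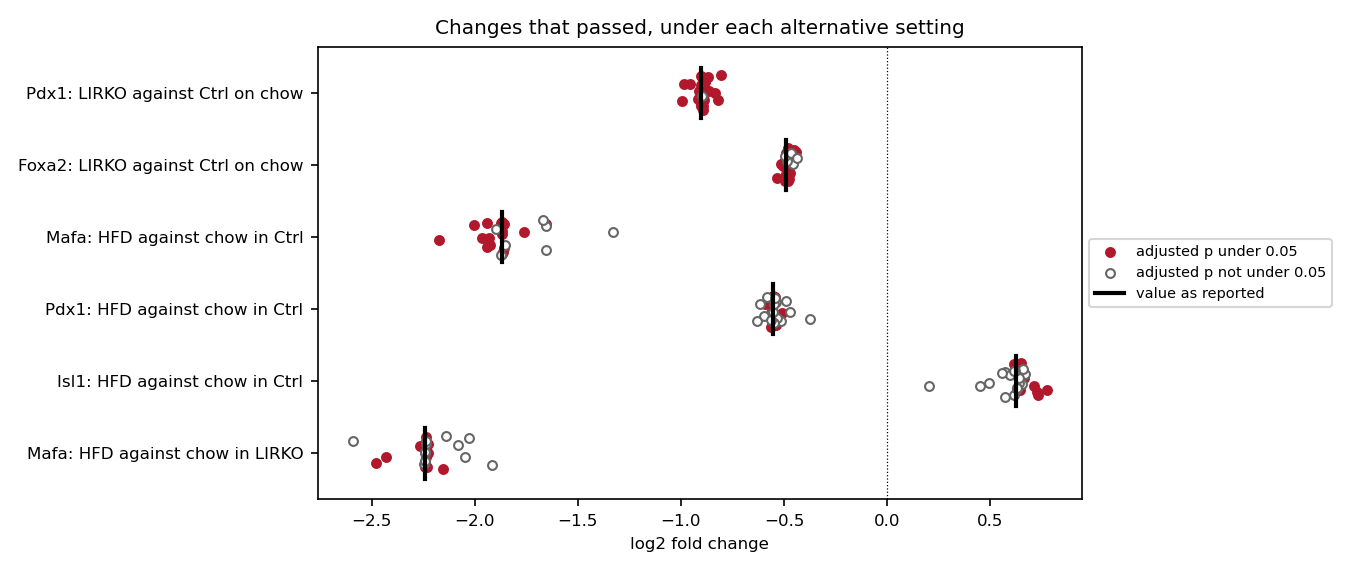
Log2 fold change of the 6 differences between 2 groups that passed, under each of 27 alternative settings (points, spread vertically for legibility); red points passed in that setting, open points did not, and the vertical line is the value as reported. Pdx1 on chow passed in 26 settings, and the open point nearest 0 for Isl1, at 0.20, is the fit without Ctrl HFD libraries 1 and 2.

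Among 33 other transcription factors and cofactors of beta cells, 31 were tested. On chow, 1 was higher in LIRKO and 2 were lower, where 2.95% and 2.2% of all tested genes passed. Etv1, an ETS factor, had 45.1 ± 5.16 CPM in LIRKO chow (SD, n = 4) and 23.5 ± 4.85 CPM in Ctrl chow (SD, n = 6), with a log2 fold change of 0.94 (SE 0.18, edgeR adjusted p = 0.00398). Thra, a thyroid hormone receptor, was lower (-0.74, SE 0.16, adjusted p = 0.0119), and so was Mnx1, a homeodomain factor of beta-cell fate (-0.55, SE 0.15, adjusted p = 0.0414). The median of the 31 was -0.09. With the LIRKO chow pairs summed 0 passed, and without Ctrl HFD libraries 1 and 2, 1 was higher and 4 were lower. Of all tested genes 193 and 1765 passed in those fits, against 993 as reported.

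On HFD 0 of the 31 passed between genotypes in edgeR, DESeq2 or limma voom, with 3 at an unadjusted p under 0.05. Of all tested genes 0.508% passed there in edgeR. In Ctrl, 3 were higher on HFD and 0 lower, namely Mlxipl, which encodes the glucose-responsive factor ChREBP (1.15, SE 0.35, adjusted p = 0.0487), the immediate-early nuclear receptor Nr4a1 (1.15, SE 0.33, adjusted p = 0.0421) and the Wnt effector Tcf7l2 (0.90, SE 0.26, adjusted p = 0.044). In this comparison 5.57% of all tested genes passed as higher and 4.35% as lower. The HFD and chow libraries of Ctrl overlapped for each of the 3. Without Ctrl HFD libraries 1 and 2 the log2 fold change was 0.54 for Mlxipl, 1.28 for Nr4a1 and 0.23 for Tcf7l2, and 0 of the 31 passed, as with the LIRKO chow pairs summed. In those fits 34 and 114 of all tested genes passed, against 1914 as reported. In LIRKO 0 of the 31 passed on HFD in edgeR, where 2.03% of all tested genes did. There were 5 of the 31 at an unadjusted p under 0.05, a threshold at which the share of all tested genes was not counted. In DESeq2 2 of the 31 passed, where 1089 genes did, and in limma voom 0, where 841 genes did. In the fit without Ctrl HFD libraries 1 and 2, 2 of the 31 passed as higher on HFD in LIRKO. Of all tested genes 538 did so. Averaged over the diets, 1 of the 31 was higher and 2 were lower in LIRKO, where 3.16% and 2.52% of all tested genes passed. Averaged over the genotypes 6 of the 31 were higher and 3 lower on HFD, where 12.1% and 9.18% of all tested genes passed. These counts without Ctrl HFD libraries 1 and 2 were 1 and 5 in LIRKO and 3 and 2 on HFD, and with the pairs summed 1 and 0 in LIRKO and 0 and 0 on HFD. Of all tested genes 1451 passed in LIRKO and 2206 on HFD in the former fit, and 507 and 638 in the latter, in either direction.

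Of 28 known targets of the factors, 1 was higher and 3 lower in LIRKO on chow, where 2.95% and 2.2% of all tested genes passed. The calcium-activated cation channel Trpm5 fell to 53.8 ± 27.9 CPM in LIRKO chow (SD, n = 4), against 142 ± 41.9 CPM in Ctrl chow (SD, n = 6), a log2 fold change of -1.40 (SE 0.35, edgeR adjusted p = 0.0276). Pcx, which encodes pyruvate carboxylase, was lower (-0.68, SE 0.16, adjusted p = 0.0166), and so was Kcnj11, the pore of the ATP-sensitive potassium channel (-0.44, SE 0.13, adjusted p = 0.0493). The granule protein gene Scg2 was higher (0.85, SE 0.21, adjusted p = 0.0259). With the LIRKO chow pairs summed 0 of the 28 passed, and without Ctrl HFD libraries 1 and 2, 1 was higher and 5 were lower. In those fits 193 and 1765 of all tested genes passed, against 993 as reported.

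On HFD 0 of the 28 targets passed between genotypes in edgeR, where 0.508% of all tested genes did. There were 7 targets at an unadjusted p under 0.05, a threshold at which the share of all tested genes was not counted. In DESeq2 1 target passed, where 311 genes did, and in limma voom 0, where 140 genes did. In Ctrl, 7 were lower on HFD and 0 higher, with a median of -0.37 over the 28, where 4.35% and 5.57% of all tested genes passed. The 4 with the smallest p were G6pc2, the islet glucose-6-phosphatase (-0.86, adjusted p = 0.0279), Sytl4, which encodes the granule-docking protein granuphilin (-1.13, adjusted p = 0.0298), Ero1lb, an oxidase of proinsulin folding (-0.69, adjusted p = 0.0366), and Pcsk2, a prohormone convertase (-0.64, adjusted p = 0.0377). In LIRKO, 0 were higher on HFD and 1 was lower, Sytl4, which fell to 144 ± 26.4 CPM on HFD (SD, n = 3), against 362 ± 61.6 CPM on chow (SD, n = 4), a log2 fold change of -1.33 (SE 0.33, adjusted p = 0.0403). Of all tested genes 1.06% passed as higher and 0.975% as lower on HFD in LIRKO. Without Ctrl HFD libraries 1 and 2, 0 targets passed in Ctrl and 3 in LIRKO on HFD, and with the LIRKO chow pairs summed 0 targets passed in either genotype. Of all tested genes 34 passed in Ctrl and 1191 in LIRKO in the former fit, and 114 and 7 in the latter.

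Averaged over the diets, 1 target was higher and 3 were lower in LIRKO, where 3.16% and 2.52% of all tested genes passed. Trpm5 was lower by a log2 fold change of -1.54 (SE 0.27, edgeR adjusted p = 0.00192) and the granule zinc transporter Slc30a8 by -0.62 (SE 0.15, adjusted p = 0.0209). Averaged over the genotypes, 9 targets were lower on HFD and 0 higher, where 9.18% and 12.1% of all tested genes passed. Sytl4 had the smallest p (-1.23, SE 0.21, adjusted p = 0.00225), and the prohormone convertase Pcsk1 also passed (-1.31, SE 0.26, adjusted p = 0.00526). The targets lower in these averages without Ctrl HFD libraries 1 and 2 were 7 in LIRKO and 9 on HFD, and with the LIRKO chow pairs summed 2 and 6. Calls among all tested genes, in either direction, were 1451 and 2206 in the former fit and 507 and 638 in the latter.

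Ins1, Ins2, the glucose transporter gene Slc2a2 and the maturity marker Ucn3 passed in none of the 4 comparisons between 2 groups. Averaged over the genotypes, Slc2a2 passed as lower on HFD (log2 fold change -0.83, SE 0.27, edgeR adjusted p = 0.0415), and not without Ctrl HFD libraries 1 and 2 (0.12) or with the LIRKO chow pairs summed (0.107). Slc2a2, a classical target of Pdx1, had 112 ± 41.2 CPM in LIRKO chow (SD, n = 4) and 222 ± 104 CPM in Ctrl chow (SD, n = 6), with a log2 fold change of -0.99 (SE 0.37, edgeR adjusted p = 0.137). Ucn3 had 179 ± 52.3 CPM in LIRKO chow (SD, n = 4) and 353 ± 51.9 CPM in Ctrl chow (SD, n = 6), with no overlap (-0.98, SE 0.35, adjusted p = 0.119). Ins2 differed by -0.02 between these groups, with an approximate 95% interval from -0.52 to 0.48.

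Several factors have annotated neighbours that overlap them. Plut is an antisense transcript at the Pdx1 locus whose human counterpart PLUTO promotes PDX1 transcription, and it shares no exonic base with Pdx1. It had 10.4, 9.92, 7.28 and 6.83 CPM in LIRKO chow libraries, and a lowest value of 13.2, a median of 17.7 and a highest value of 31.5 CPM in Ctrl chow libraries. These groups did not overlap, and the log2 fold change of -1.17 (SE 0.39) did not pass (edgeR adjusted p = 0.0986). Averaged over the diets Plut passed as lower in LIRKO (-1.18, SE 0.30, adjusted p = 0.0225). The average was -0.67 without Ctrl HFD libraries 1 and 2 (adjusted p = 0.0361), and with the LIRKO chow pairs summed it did not pass (0.105). In Ctrl HFD it had 48.6 and 37.7 CPM in libraries 1 and 2, against 8.62 to 17.5 CPM in libraries 3 to 5.

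The antisense transcript 6430503K07Rik within Nkx2-2 was higher on HFD in Ctrl (0.79, SE 0.22, adjusted p = 0.0402), where Nkx2-2 itself was at 0.10 and did not pass. The antisense value was 0.47 and did not pass without Ctrl HFD libraries 1 and 2 (0.237), nor did it with the LIRKO chow pairs summed (0.0644). Pax6os1, antisense to Pax6, did not pass in any comparison between 2 groups. Cerkl lies on the same strand as Neurod1 and shares 201 of its 2729 exonic bases. Neither Cerkl nor Neurod1 passed. How strand was treated in counting was not known here, so reads of a factor and its antisense partner cannot be fully told apart.

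The genes most like Pdx1 across the 18 libraries, by Pearson r of log2 CPM among 10610 named genes, were Wdr41 (r = 0.958), Rpia (0.955), Vdr (0.943), Kat14 (0.942) and Ddx31 (0.940). Those most like Mafa were Sytl4 (r = 0.974), Maob (0.973), Tmem215 (0.970), Map4 (0.969) and Ppm1b (0.965). Sytl4 is also among the listed targets of the factors. These values describe libraries that share groups and 2 atypical libraries, and carry no test.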

How the data were processed

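Libraries of total RNA from sorted mouse beta cells were prepared with a directional kit, per the labels. The authors deposited unnormalised counts of reads per Ensembl gene, made with STAR and featureCounts on GRCm38, per the submitters' processing notes. Their versions, annotation and strand option were not known here. Of 53090 IDs, 52403 matched a symbol in GENCODE M21. Groups follow the genotype and diet labels, and replicate numbers follow the order of deposit.

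Counts entered edgeR 4.0.16 in R 4.3.3 (TMM scaling, filterByExpr, quasi-likelihood F test, 1 coefficient per group over all 18 libraries, two-sided), which left 19284 genes. The common biological coefficient of variation was 0.314. The Benjamini-Hochberg adjustment ran over all tested genes within each of 7 comparisons, and a gene passed under 0.05. Intervals of fold changes are those of the fit. The model was tested on simulated counts.

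The alternatives were DESeq2 1.42.0, limma 3.58.1 voom, other scalings, no filter, fewer groups, LIRKO chow pairs summed, and libraries left out. Log2 CPM for r used a prior count of 2. The 10 factors and all gene lists were chosen with earlier results of these data known, and the target and marker lists come from general knowledge. From each list, up to 4 genes with the smallest p past the threshold in each comparison between 2 groups are named, with Ins1, Ins2, Slc2a2, Ucn3, Aldh1a3, Gcg, Sst, Malat1 and antisense neighbours of the factors; 1 other gene so named is not reported here. Promoters and motifs come from the RefSeq table of GRCm38.p6.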

Additional observations from a re-analysis of the deposited data

How the results depend on the processing

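No paired analysis was possible because the labels give library names, genotype and diet, and nothing that pairs libraries between groups. Of 70 pairs of factor and comparison, 11 passed, none of which changed sign in any of the alternatives run, and 21 that did not pass changed sign in at least 1. The number of factors passing between LIRKO and Ctrl on chow was 2 as reported, 1 with no filter, 4 in a fit to the groups compared, 0 with the LIRKO chow pairs summed, 4 without Ctrl HFD libraries 1 and 2, and 1 to 3 without 1 library. In DESeq2 Hnf4a passed there as well. Between LIRKO and Ctrl on HFD the number passing was 0, and 1 without Ctrl HFD libraries 1 and 2. Between HFD and chow in Ctrl it was 3, and 1 with no filter, 5 in DESeq2, 0 in a fit to the groups compared, 0 with the pairs summed, 0 without Ctrl HFD libraries 1 and 2, and 0 to 4 without 1 library. Pdx1 was lost there with total counts, and Isl1 in limma voom. Between HFD and chow in LIRKO the number passing was 1, and 0 with total counts, 3 in a fit to the groups compared, 0 with the pairs summed, 2 without Ctrl HFD libraries 1 and 2, and 0 to 1 without 1 library. For the genotype average it was 3, and 2 with no filter, 1 with the pairs summed, 4 without Ctrl HFD libraries 1 and 2, and 1 to 3 without 1 library. For the diet average it was 2, and 4 with total counts, 3 in DESeq2, 1 with the pairs summed and 2 to 4 without 1 library. With summed pairs LIRKO chow holds 2 libraries. The cause of these changes, with the pairs summed or in the other settings, was not tested. Calls among all tested genes moved as well. With the pairs summed, and without Ctrl HFD libraries 1 and 2, they went from 993 to 193 and 1765 between genotypes on chow. On HFD they went from 98 to 54 and 193. Between diets they went from 1914 to 114 and 34 in Ctrl, and from 392 to 7 and 1191 in LIRKO. The fit to the groups compared gave 1653, 19, 1 and 3403 for these 4 comparisons. The genotype average went from 1096 to 507 and 1451, and the diet average from 4095 to 638 and 2206.

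The Pdx1 call between HFD and chow in Ctrl was lost without Ctrl chow library 1 (adjusted p = 0.0879), 2 (0.0545), 5 (0.0595) or 6 (0.0979), Ctrl HFD library 1 (0.11), 2 (0.0789) or 4 (0.058), LIRKO chow library 1 (0.0521), 3 (0.0519) or 4 (0.0539), or LIRKO HFD library 3 (0.0522). The Isl1 call was lost without Ctrl chow library 1 (0.0858), 2 (0.0797), 3 (0.0532), 5 (0.0512) or 6 (0.0984), Ctrl HFD library 1 (0.14) or 2 (0.115), any of the 4 LIRKO chow libraries (0.0517 to 0.0567), or LIRKO HFD library 2 (0.0545) or 3 (0.0565). In the fit to the Ctrl groups alone, 1 of all tested genes passed between HFD and chow in Ctrl, against 1914 as reported. Total counts as the only scaling moved the median of all genes on HFD to 0.22 in Ctrl and 0.25 in LIRKO, against 0.04 and 0.03, and made 2029 of 2191 and 504 of 590 calls higher, against 1075 of 1914 and 204 of 392.

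Without Ctrl HFD libraries 1 and 2, the log2 fold change between LIRKO and Ctrl on HFD was 0.30 for Nkx6-1, 0.26 for Isl1, 0.39 for Pax6 and -0.16 for Hnf4a, reversing the values of the full set. In the same fit the difference between HFD and chow in Ctrl was -0.39 for Nkx6-1, -0.20 for Nkx2-2 and -0.021 for Pax6, the interaction was 0.77 for Nkx6-1, 0.36 for Isl1, 0.23 for Pax6 and 0.020 for Rfx6, the genotype average was 0.086 for Isl1, and the diet average -0.0047 for Nkx6-1. With limma voom the values that changed sign were 0.029 for Pax6 between LIRKO and Ctrl on HFD, -0.014 for Foxa2 between HFD and chow in LIRKO and 0.15 for the Nkx6-1 interaction. With no filter they were 0.028, -0.022 and 0.00689 for the same 3. With total counts they were 0.046 for Pax6 between LIRKO and Ctrl on HFD, 0.15 for Pdx1 and 0.058 for Neurod1 between HFD and chow in LIRKO, 0.050 for the Nkx6-1 interaction, and 0.13 for Nkx2-2, 0.043 for Foxa2 and 0.069 for Hnf4a in the diet average.

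Without 1 library at a time, the values that crossed 0 ran from -0.21 to 0.10 for Foxa2, -0.022 to 0.16 for Hnf4a and -0.29 to 0.043 for Pdx1 between HFD and chow in LIRKO. They ran from -0.083 to 0.11 for Hnf4a and -0.14 to 0.15 for Pax6 between LIRKO and Ctrl on HFD, from -0.017 to 0.20 for Nkx2-2 between HFD and chow in Ctrl, and from -0.0061 to 0.14 for Pax6 in the genotype average. In the interaction they ran from -0.18 to 0.10 for Isl1, -0.21 to 0.27 for Nkx6-1, -0.27 to 0.021 for Pax6 and -0.17 to 0.031 for Rfx6. Per length of the longest transcript, Nkx2-2 had 57.9, Isl1 62.7 and Pax6 135 RPKM, more than 1 SD above the values on the exon union. The list counts were run under the same alternatives, a choice made after seeing the data. The 28 targets gave 0 to 7 calls between LIRKO and Ctrl on chow and 0 to 10 between HFD and chow in Ctrl, and the 31 other factors 0 to 5 and 0 to 8. Between HFD and chow in LIRKO the targets gave 0 to 6 calls and the other factors 0 to 9. In the averages over the diets and over the genotypes the targets gave 3 to 9 and 6 to 13 calls, and the other factors 1 to 6 and 0 to 12.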

Other observations

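Aldh1a3, an aldehyde dehydrogenase used as a marker of beta cells that lose their mature identity, averaged 87.9 ± 8.41 CPM in LIRKO chow libraries (SD, n = 4) and 4.92 ± 7.95 CPM in Ctrl chow libraries (SD, n = 6), with a log2 fold change of 4.14 (SE 0.66, edgeR adjusted p = 0.00106). In LIRKO HFD it averaged 50.7 ± 5.53 CPM (SD, n = 3) and in Ctrl HFD 15.2 ± 6.11 CPM (SD, n = 5), a log2 fold change of 1.73 (SE 0.69) that did not pass (adjusted p = 0.482).

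Among markers of other islet cells, Gc, an alpha-cell marker that encodes vitamin D-binding protein, was higher in LIRKO than in Ctrl on chow (log2 fold change 1.90, SE 0.13, edgeR adjusted p = 2.45e-07) and on HFD (0.81, SE 0.14, adjusted p = 0.0123). Gcg, the glucagon gene, and Sst, the somatostatin gene, did not pass in any comparison between 2 groups, and the summed CPM of the 12 alpha-cell markers ran from 3526 to 6064 in LIRKO HFD, 2716 to 5062 in LIRKO chow, 3641 to 7332 in Ctrl HFD and 2907 to 4240 in Ctrl chow libraries. On chow, 2 of the 12 were higher in LIRKO, Gc and the transthyretin gene Ttr (0.85, adjusted p = 0.00488), and 1 was lower, Dpp10 (-0.97, adjusted p = 0.0382). The log2 fold change was below 0 for 8 of the 12, with a median of -0.08. Of all tested genes 2.95% passed as higher and 2.2% as lower there. Gc was also higher on HFD in Ctrl (0.94, adjusted p = 0.00323). Of the delta-cell list 0 tested markers passed in edgeR in the 4 comparisons between 2 groups, with 0 to 3 at an unadjusted p under 0.05, and of the acinar list 0 passed, with 0 at an unadjusted p under 0.05. DESeq2 and limma voom were not read for these lists. In LIRKO on chow, Pyy of the PP-cell list was lower (-1.76, adjusted p = 0.0301), Spp1 of the duct list was higher (2.10, adjusted p = 0.00883), the lysozyme gene Lyz2 of the macrophage list was lower (-1.13, adjusted p = 0.0433) and Thy1 of the stellate and mesenchymal list was lower (-2.95, adjusted p = 0.0464). No other marker of these lists passed there. Below 0 were 5 of 5 PP-cell, 4 of 8 duct, 10 of 14 macrophage and 6 of 11 stellate and mesenchymal markers. The list medians were -1.22, -0.02, -0.56 and -0.02. On HFD in Ctrl, Sparc of the stellate and mesenchymal list was higher (2.06, adjusted p = 0.045), and the 4 endothelial markers with the smallest p were Esam (0.66, adjusted p = 0.0438), Eng (1.90, 0.0479), Cd34 (1.79, 0.0496) and Egfl7 (1.62, 0.0497). On HFD in LIRKO, Esam was higher (1.04, adjusted p = 0.0306), as were Tyrobp (2.03, 0.0185), C1qc (1.84, 0.0273) and Lyz2 (1.47, 0.0379) of the macrophage list. With the LIRKO chow pairs summed, Aldh1a3 on chow (adjusted p = 0.016) and Gc in its 3 comparisons passed, and the other markers named here did not. Sparc and the endothelial markers did not pass in Ctrl without Ctrl HFD libraries 1 and 2.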
